A study of Mus musculus with 108 samples.

Results

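Rmrp, Rpph1 and Rn7sk are 3 abundant noncoding RNAs that fold into fixed structures and act inside particles with proteins. They were taken from the table of 53464 genes by their gene symbols, which matched 4 rows, since Rmrp has a pair of deposited rows that were added together here. They were chosen by their levels in these same libraries, their high counts and their variation between replicates and between groups, so their levels, their spread and their differences between groups are given as descriptions, with no test. Tests are kept for genes whose values the choice of these RNAs did not use, namely the protein partners of these RNAs, other structured RNAs and the neighbouring genes. The lists of these genes were still drawn up with earlier results of these data known. The other structured RNAs also deviated between libraries along with the 3 RNAs, so their results are not separate from those of the 3.

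Rmrp is the RNA of RNase MRP, an enzyme of the nucleolus that cuts the precursor of ribosomal RNA. Rpph1 is the catalytic RNA of RNase P, which removes the leader from the 5′ end of tRNA precursors, and both enzymes share most of their protein subunits. Rn7sk is the 7SK RNA, a nuclear RNA that, with the Hexim proteins, holds the kinase P-TEFb (Cdk9 and a cyclin T) in an inactive form and so restrains the elongation step of transcription by RNA polymerase II. All 3 are made by RNA polymerase III from promoters that lie outside the transcribed stretch, in neurons and glia as in other cells, and none carries a poly(A) tail as a rule. They are therefore measured in total RNA libraries but largely missed where poly(A) RNA is selected.

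The study compared wild-type (WT) and Cul3+/- mice in 3 brain regions, the cortex (abbreviated CX), the hippocampus (HIP) and the cerebellum (CB), before birth (embryonic day E17.5), at postnatal day 7 (P7) and in adults (P35, postnatal day 35). Cul3+/- mice carry a germline frameshift insertion of 1 base in exon 6 of Cul3, made with CRISPR/Cas9 on a C57BL/6N background and bred on from a heterozygous founder, so the mutant line descends from a single edited allele, and mice of both genotypes are C57BL/6N. No treatment is named in the labels, which do not give the sex either. Each library is total RNA of 1 region of 1 mouse after depletion of ribosomal RNA. There are 6 mice per genotype at E17.5 and at P7, and 5 per genotype among adults once 2 adult mice are set aside, because the sample labels and the study's own list of samples gave opposite genotypes for them. This makes 102 libraries of 34 mice in 18 groups.

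The sequences show how these genes are annotated and where counting could be ambiguous. In the GRCm38 annotation used here (GENCODE vM21, mouse), Rmrp lies on the minus strand at chr4:43492783-43493063 as a single-exon transcript of 281 bases. A second model of the same gene spans 271 bases, chr4:43492788-43493058, and the deposited table has a row for each. In the transcript below, the capitals mark the 5 bases at the start and the 5 at the end that the shorter model lacks, so a read can be told apart between the 2 rows only at these ends. Rpph1 lies on the minus strand at chr14:50807449-50807767, in 1 exon of 319 bases. The capitals mark bases 36 to 268, a run of 233 bases that an annotated transcript of the protein-coding gene Ccnb1ip1 holds identically on the same strand. Rn7sk lies on the minus strand at chr9:78175303-78175633, in 1 exon of 331 bases, between genes. The first 300 bases of Rpph1 (chr14:50807468-50807767) and of Rn7sk (chr9:78175334-78175633) are shown, which hold all the marked stretches. The capitals of Rn7sk mark the tetramer GATC, found 3 times, at bases 13, 42 and 64; this letter group is known from the stem of 7SK RNA that Hexim binds, and it was not found in either of the other RNAs.
Rmrp: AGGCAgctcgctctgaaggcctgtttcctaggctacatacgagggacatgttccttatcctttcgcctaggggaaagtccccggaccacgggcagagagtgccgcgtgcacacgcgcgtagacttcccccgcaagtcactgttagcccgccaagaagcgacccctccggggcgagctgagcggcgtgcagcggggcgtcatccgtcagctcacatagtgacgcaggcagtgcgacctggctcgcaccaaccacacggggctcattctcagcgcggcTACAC
Rpph1: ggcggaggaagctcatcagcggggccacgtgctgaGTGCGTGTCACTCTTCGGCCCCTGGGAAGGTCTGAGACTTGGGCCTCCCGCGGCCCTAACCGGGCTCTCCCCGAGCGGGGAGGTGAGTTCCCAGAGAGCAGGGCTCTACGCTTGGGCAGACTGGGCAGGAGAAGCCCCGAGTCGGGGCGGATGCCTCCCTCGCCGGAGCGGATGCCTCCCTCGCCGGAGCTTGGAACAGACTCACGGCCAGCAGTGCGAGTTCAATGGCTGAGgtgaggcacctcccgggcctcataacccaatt
Rn7sk: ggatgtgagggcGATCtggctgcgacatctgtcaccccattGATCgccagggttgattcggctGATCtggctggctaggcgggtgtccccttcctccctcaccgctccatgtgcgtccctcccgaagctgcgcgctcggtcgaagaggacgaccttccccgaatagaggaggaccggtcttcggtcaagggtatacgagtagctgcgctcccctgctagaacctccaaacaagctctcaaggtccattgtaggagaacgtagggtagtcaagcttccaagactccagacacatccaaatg

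The 3 sequences are rich in G and C, which make up 63.7% of Rmrp, 67.1% of Rpph1 and 58.0% of Rn7sk. Other annotated transcripts resemble them to differing extents. Rn7sk resembled many annotated transcripts in a BLAST search, many of them copies of 7SK. The 197 of these genes on the same strand together held counts equal to 0.195% of those of Rn7sk. The closest copy, Gm24447, was identical over 241 bases and averaged 16.7 CPM (the count relative to the library size, scaled by the trimmed mean of M values, TMM). The 197 genes also include Alkbh6, with 71.8% identity over 234 bases, whose 17.8 CPM are part of the 49.8 CPM of the 197. Rpph1 resembled 19 genes, and those on the same strand held counts equal to 0.00741% of those of Rpph1. Rmrp resembled only Ccdc107, on the opposite strand. Nearly all the values of the 3 RNAs were fractions rather than whole reads: 100% of the values of both Rmrp rows, 97.2% for Rpph1 and 99.1% for Rn7sk were not whole, against 5.76% over all genes. The deposited values therefore share reads out between overlapping or similar transcripts by estimation.

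Promoters of the RNA polymerase III genes with outside control often hold an octamer, ATGCAAAT or ATTTGCAT on the other strand, in the distal part of the promoter, bound by the factor Oct-1 (Pou2f1). The RefSeq promoter table (GRCm38.p6, windows of 300 bases around the starts of genes) was not matched to any of the 3 RNAs, but it holds windows of genes beside them on the opposite strand. Such windows are shown for Rmrp and Rpph1 because each holds the octamer, in capitals. The Ccdc107 window, chr4:43493115-43493414 on the plus strand, begins 52 bases upstream of the Rmrp start, and its octamer lies 211 to 218 bases upstream of that start. It does not hold the GENCODE start of Ccdc107, chr4:43492900, which lies within Rmrp, so this window belongs to another annotated start. The Parp2 window, chr14:50807666-50807965 on the plus strand, covers the first bases of Rpph1 and what lies upstream, with an octamer 93 to 100 bases upstream of the Rpph1 start.
Ccdc107 window: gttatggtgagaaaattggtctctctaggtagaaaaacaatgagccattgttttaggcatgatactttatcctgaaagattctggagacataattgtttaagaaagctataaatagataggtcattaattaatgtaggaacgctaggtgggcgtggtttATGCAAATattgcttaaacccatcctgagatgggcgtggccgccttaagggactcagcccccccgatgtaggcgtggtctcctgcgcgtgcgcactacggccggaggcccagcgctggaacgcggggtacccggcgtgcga
Parp2 window: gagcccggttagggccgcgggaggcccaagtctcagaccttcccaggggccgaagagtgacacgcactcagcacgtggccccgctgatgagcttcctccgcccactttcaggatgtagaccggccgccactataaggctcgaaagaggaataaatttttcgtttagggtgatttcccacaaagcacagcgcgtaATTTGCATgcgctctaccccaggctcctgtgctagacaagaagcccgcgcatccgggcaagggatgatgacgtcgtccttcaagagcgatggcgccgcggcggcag

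The window of C920006O11Rik, which starts 281 bases from the Rn7sk start in the opposite direction, held no octamer. Among all 32851 windows of the table, 570 held it on either strand (1.74%). A match of 8 letters is a description of these windows and was not tied to binding or to the levels below.

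Libraries held between 15126114 and 44411282 counts (median 32663960). Cul3 itself, the gene that was edited, was lower in Cul3+/- mice in every region and period, with log2 fold changes from −0.74 (SE 0.066) in adult CB to −0.99 (SE 0.045) in adult HIP. Its highest adjusted p over the 9 comparisons was 0.00262 (edgeR quasi-likelihood test, Benjamini-Hochberg adjustment). Markers set CB apart from the other regions, whereas those of CX and HIP overlapped. Of the markers, 8 cerebellar ones such as Zic1 and Cbln1 summed to between 927 and 2501 CPM in CB libraries and to 525 or less elsewhere. The 6 cortical markers summed to 264 to 1505 in CX, 193 to 509 in HIP and 1.83 to 41.8 in CB, and among adults CX (264 to 331) and HIP (233 to 308) overlapped. They did not overlap at E17.5 (777 to 1505 in CX, 214 to 509 in HIP) or at P7 (419 to 642 and 193 to 368). The 6 hippocampal markers summed to 613 to 2245 in HIP, 111 to 405 in CB and 240 to 942 in CX. HIP lay above CX at P7 (870 to 1521 against 316 to 422) and in adults (613 to 841 against 240 to 263). At E17.5 the regions overlapped (777 to 2245 in HIP, 751 to 942 in CX).

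The 3 RNAs were among the most abundant rows of the table. Over all libraries Rn7sk ranked 3 by mean CPM among 53464 genes, after the 7SL rows Rn7s1 and Rn7s2 (7SL is the RNA of the signal recognition particle), while Rmrp ranked 10 and Rpph1 11. Together the 3 took between 1.08% and 5.06% of the counts of a library (median 3.02%), most of it Rn7sk, with 0.902% to 4.13%. All 3 passed the filter on low counts in each of the 15 fits. Levels below are CPM of TMM-scaled library sizes.

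In WT mice, Rmrp was highest in E17.5 CX and lowest in P7 CX. In CX its mean was 5039 ± 656 CPM at E17.5 (SD, n = 6), 1424 ± 347 at P7 (n = 6) and 1752 ± 521 in adults (n = 5). HIP had means of 3073 ± 706, 2112 ± 217 and 1713 ± 176 at these ages. CB had 3530 ± 624, 4330 ± 1668 and 1508 ± 721. The mean was lower by P7 in CX, in smaller steps in HIP, and between P7 and adulthood in CB. From the highest to the lowest group the means differed 3.54-fold, the widest of the 3 RNAs, although each group overlapped in range with its neighbour in the order of means. Only the step from E17.5 HIP down to P7 HIP exceeded the larger SD of the pair.

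**Figure D1:**
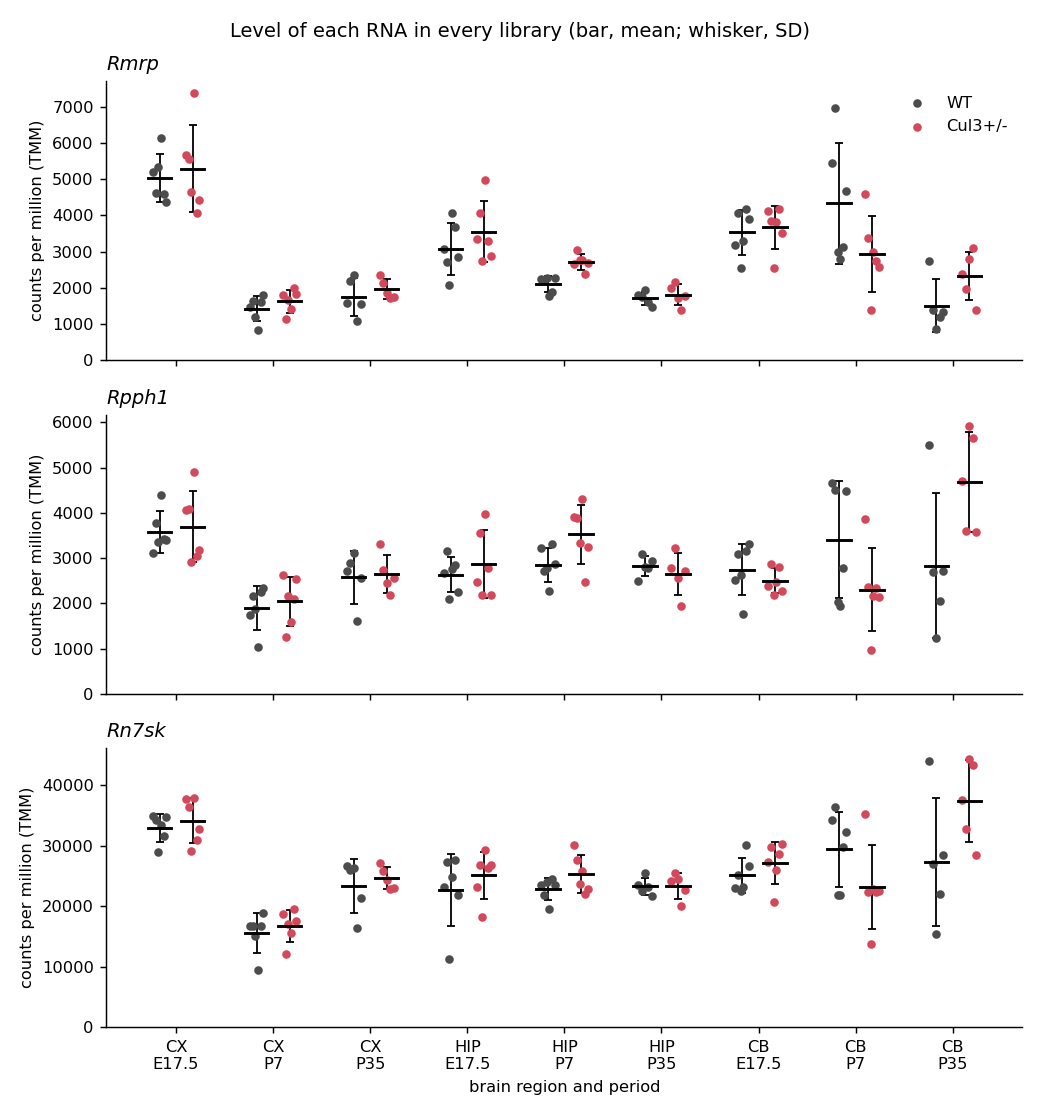
Level of Rmrp, Rpph1 and Rn7sk in each of 102 libraries, in TMM CPM (vertical axes, linear from 0), by region and period (horizontal axis) and genotype (grey, WT; red, Cul3+/-); points are mice, bars means and whiskers SD. Rmrp is highest in E17.5 CX (WT mean 5039) and lowest in P7 CX (1424). The CB groups at P7 and P35 have the widest scatter for Rpph1 and Rn7sk. For Rmrp the SD is largest in P7 CB of WT mice (1668), followed by E17.5 CX of Cul3+/- mice (1204).

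Rpph1 varied less over the same groups. In CX the WT mean was 3578 ± 457 CPM at E17.5, 1900 ± 485 at P7 and 2574 ± 579 in adults. In HIP it was 2632 ± 390, 2857 ± 377 and 2819 ± 220 at the same periods. In CB it was 2744 ± 568, 3403 ± 1296 and 2835 ± 1602. The highest and lowest means, E17.5 CX and P7 CX, differed 1.88-fold, and in HIP the means moved by less than their SD from period to period. With library totals in place of TMM the highest group was P7 CB and the range 2.00-fold.

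Rn7sk followed the order of Rpph1 more than that of Rmrp. In CX its WT mean was 32991 ± 2322 CPM at E17.5, 15610 ± 3251 at P7 and 23352 ± 4416 in adults. In HIP it was 22711 ± 6017, 22830 ± 1833 and 23304 ± 1430. In CB it was 25132 ± 2862, 29415 ± 6259 and 27376 ± 10606. P7 CX stood lowest here too, and the range over groups was 2.11-fold. Across the 9 WT group means Pearson's r was 0.932 between Rpph1 and Rn7sk, 0.758 between Rmrp and Rpph1 and 0.691 between Rmrp and Rn7sk, over 9 points that share their libraries.

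The step from E17.5 to P7 in WT CX was where all 3 RNAs were lower together. Rmrp ranged from 4366 to 6130 CPM at E17.5 (median 4901) and from 847 to 1796 at P7 (median 1538). Rpph1 ranged from 3108 to 4406 (median 3409) and from 1026 to 2335 (median 2020). Rn7sk ranged from 28939 to 34874 (median 33879) and from 9470 to 18911 (median 16724). For each of the 3, every E17.5 library lay above every P7 library, as was the case for 30.5% of all 17640 genes tested in this step. The log2 fold change, P7 over E17.5, was −1.88 (SE 0.17) for Rmrp, −0.98 (SE 0.17) for Rpph1 and −1.14 (SE 0.15) for Rn7sk. In bulk tissue, a lower level per cell and fewer cells with a high level cannot be told apart.

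In the other WT steps only Rmrp in CB had groups that did not overlap. From P7 to adult CB its log2 fold change was −1.54 (SE 0.32), with 2800 to 6970 CPM at P7 and 867 to 2745 in adults, beside 31.6% of genes whose adult CB values lay wholly below those at P7. In the same mice Rpph1 and Rn7sk had log2 fold changes of −0.28 (SE 0.36) and −0.12 (SE 0.24), and their groups overlapped. In HIP, Rmrp had −0.56 (SE 0.14) from E17.5 to P7 and −0.29 (SE 0.080) from P7 to adults, whereas Rpph1 and Rn7sk stayed between −0.01 and 0.10 in both steps. In CX, from P7 to adults, the values were higher for all 3, with 0.32 (SE 0.21) for Rmrp, 0.46 (SE 0.20) for Rpph1 and 0.61 (SE 0.18) for Rn7sk, within overlapping ranges. P7 libraries also differed from those of the other periods in how reads were divided between near-identical 7SL rows, with values given further down, and its part in these differences was not tested.

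Cul3+/- mice had ratios of means between periods close to those of WT in CX. There the P7 mean was 0.308 of the E17.5 mean for Rmrp, 0.553 for Rpph1 and 0.491 for Rn7sk, against 0.283, 0.531 and 0.473 in WT. In HIP the adult mean was 0.666 of the P7 mean for Rmrp in Cul3+/- mice and 0.811 in WT. It was 0.751 and 0.987 for Rpph1, and 0.923 and 1.02 for Rn7sk, in the same order. In CB the adult mean of Rpph1 was 2.04 times the P7 mean in Cul3+/- and 0.833 times in WT, and that of Rn7sk 1.61 and 0.931 times. Rmrp had a lower adult mean in both genotypes, 0.790 of the P7 mean in Cul3+/- with overlapping groups. In WT the adult mean was 0.348 of the P7 mean, without overlap, as for 31.6% of all genes in that step. These differences between genotypes in the step were not tested.

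The order of Rmrp and Rpph1 within a library differed between periods. Within each library, the level of Rmrp per base of transcript was divided by that of Rpph1. The WT mean of this ratio was 1.61 ± 0.20 in CX, 1.33 ± 0.25 in HIP and 1.5 ± 0.33 in CB at E17.5. At P7 it was 0.859 ± 0.082 in CX and 0.848 ± 0.11 in HIP but still 1.47 ± 0.24 in CB. In adults it was 0.767 ± 0.092, 0.695 ± 0.10 and 0.635 ± 0.099. All 6 E17.5 CX libraries lay at 1.39 or above and all 6 at P7 at 0.948 or below. In CB the P7 libraries lay between 1.18 and 1.76 and the adult ones between 0.560 and 0.797, so the CB ratio was lower only at the later step. Rn7sk per base was 7.75 to 9.98 times Rpph1 in every WT group mean, with no such order. The same course appeared in Cul3+/- mice, where the mean Rmrp over Rpph1 ratio was 1.63, 1.42 and 1.67 at E17.5 and 0.844, 0.778 and 0.559 in adults, in CX, HIP and CB.

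**Figure D2:**
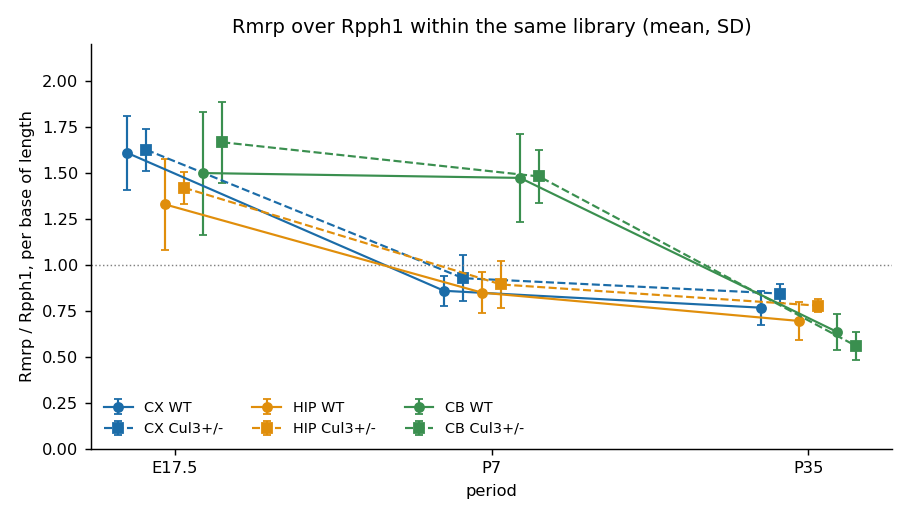
Ratio of Rmrp to Rpph1 within the same library, per base of transcript (vertical axis, linear from 0), at each period (horizontal axis), as mean and SD of 5 or 6 mice per group; solid lines and circles are WT, dashed lines and squares Cul3+/-, and colours are regions. The dotted line marks equal levels: all regions lie above it at E17.5, CB alone at P7 (WT mean 1.47) and none at P35.

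Between genotypes, differences were small in most datasets. In CX at all 3 periods, in HIP at E17.5 and P35, and in CB at E17.5, the log2 fold changes of the 3 RNAs, Cul3+/- over WT, lay between −0.12 (Rpph1, E17.5 CB, SE 0.13) and 0.20 (Rmrp, P7 CX, SE 0.17), and all groups overlapped. The remaining 3 datasets, P7 HIP, P7 CB and adult CB, are described in turn.

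In P7 HIP, Rmrp was higher in all 6 Cul3+/- mice than in any of the 6 WT mice. WT values ran from 1781 to 2283 CPM (median 2228) and Cul3+/- values from 2377 to 3049 (median 2725). The groups did not overlap, which held with higher values in Cul3+/- for 31 of 17753 genes tested in this dataset (0.175%), a count that includes Rmrp. The log2 fold change was 0.36 (SE 0.078), and it stayed between 0.32 and 0.40 over 18 alternatives. Rpph1 ran from 2270 to 3311 in WT (median 2818) and from 2482 to 4314 in Cul3+/- (median 3609), with 4 of 6 Cul3+/- mice above all WT mice and a log2 fold change of 0.30 (SE 0.12). Rn7sk ran from 19515 to 24476 in WT (median 23517) and from 22026 to 30158 in Cul3+/- (median 24710), with 3 of 6 above all WT mice and 0.15 (SE 0.089). The 7SL sum (Rn7s1 and Rn7s2) had a ratio of means of 1.005 in the same libraries. Markers of the choroid plexus, 6 genes including Ttr that were all detected, summed to a median of 38.3 CPM in WT (10.8 to 161) and 28.5 in Cul3+/- (8.38 to 4286). Over these 12 libraries, r between their deviations from the group means and those of Rmrp was 0.0037. Such deviations leave out the difference between genotypes, and the part of these markers in it was not tested.

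In P7 CB the 3 RNAs were lower on average in Cul3+/- mice, within overlapping ranges. Rmrp ran from 2800 to 6970 CPM in WT (median 3894) and from 1375 to 4584 in Cul3+/- (median 2875). Rpph1 ran from 1942 to 4668 (median 3632) and from 961 to 3860 (median 2254). Rn7sk ran from 21792 to 36448 (median 31068) and from 13734 to 35322 (median 22511). Mutant replicate 3 was lowest and mutant replicate 1 highest among mutants for all 3 RNAs. The log2 fold changes were −0.53 (SE 0.28) for Rmrp, −0.54 (SE 0.30) for Rpph1 and −0.32 (SE 0.20) for Rn7sk. Over the alternatives the value ran from −0.72, without mutant replicate 1, to −0.35, without WT replicate 2, for Rmrp. For Rpph1 it ran from −0.80, with a fit that combines 3 factors of unwanted variation (RUVs), upper-quartile scaling and a likelihood ratio test, to −0.38, without mutant replicate 3, and was −0.77 without mutant replicate 1. For Rn7sk it ran from −0.49, without mutant replicate 1, to −0.20, without mutant replicate 3. The 7SL sum had a ratio of 0.796, in the same direction. Choroid plexus markers also differed here, with a median sum of 6.36 CPM in WT (4.38 to 1477) and 1456 in Cul3+/- (4.65 to 2701), all 6 detected, and their part in the result was not tested.

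In adult CB the direction was the opposite. Rmrp was at 2745, 1396, 867, 1201 and 1333 CPM in the 5 WT mice and at 2370, 1971, 2791, 3107 and 1395 in the 5 Cul3+/- mice. Rpph1 was at 5491, 2692, 1235, 2053 and 2704 in the same WT mice and at 4699, 3605, 5926, 5653 and 3570 in the Cul3+/- mice. Rn7sk was at 44012, 27000, 15390, 22058 and 28420, and at 37558, 32831, 44407, 43368 and 28544. WT replicate 1 had the highest WT value of all 3 RNAs, within the mutant range, and the groups overlapped for each RNA. The log2 fold changes were 0.60 (SE 0.29) for Rmrp, 0.70 (SE 0.32) for Rpph1 and 0.42 (SE 0.23) for Rn7sk, and without WT replicate 1 they were 0.94, 1.09 and 0.67. Without WT replicate 3 they were 0.46, 0.51 and 0.27, and with the RUVs fit 0.44, 0.44 and 0.22. The 7SL sum had a ratio of 1.34. Choroid plexus markers had a median sum of 21.6 CPM in WT (11.8 to 3041) and 515 in Cul3+/- (17.51 to 2069), all 6 detected. Between their deviations from the group means and those of Rmrp, r was −0.13. This leaves out the difference between genotypes, and the part of these markers in it was not tested.

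**Figure D3:**
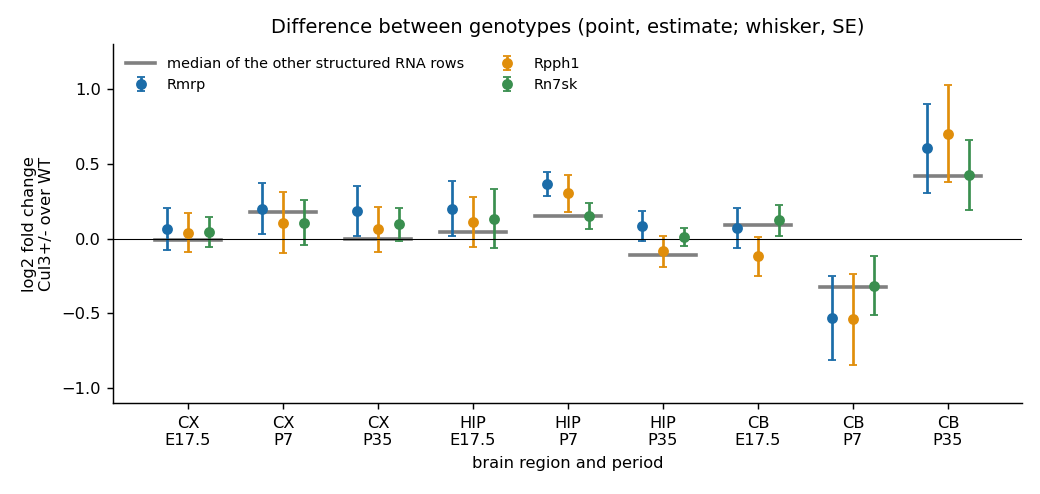
Log2 fold change between genotypes, Cul3+/- over WT (vertical axis), for Rmrp, Rpph1 and Rn7sk in the 9 combinations of region and period (horizontal axis); points are edgeR estimates, whiskers SE and grey bars the median over the other structured RNA rows tested. The 3 RNAs share their direction in all datasets but E17.5 CB and adult HIP. Their largest values are in P7 CB (−0.53 for Rmrp) and adult CB (0.60). Where they share it, the grey bar lies on the same side except in E17.5 CX (−0.01) and adult CX (−0.001).

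Replicates of the same group differed more for these RNAs than for most of the 100 genes nearest to each in mean level. Around the group means, the SD of log2 CPM was 0.355 for Rmrp, 0.385 for Rpph1 and 0.281 for Rn7sk, over 102 libraries. Among the 100 genes nearest in mean level to each, 93 had a smaller SD than Rmrp, 95 than Rpph1 and 90 than Rn7sk, and the median SD of those genes was 0.148 to 0.149. Few rows are as abundant as Rn7sk, which averaged 25574 CPM without TMM, against 2916 for Rmrp at rank 10. Most of its 100 nearest genes were therefore far less abundant. The 7SL rows, which rank above it, had SDs of 0.237 (Rn7s1) and 0.275 (Rn7s2), with 82 and 88 of their 100 nearest genes below them. Over all 20858 genes kept, which include many with low counts, the median SD was 0.259. Since these genes were chosen with this variation known, the comparison describes it and tests nothing. The widest scatter was in CB after birth: the highest library was 3.33 times the lowest for Rmrp among P7 CB mutants, 4.45 times for Rpph1 and 2.86 times for Rn7sk among adult WT CB. The narrowest groups were in HIP, at P7 for Rmrp, where both genotypes had 1.28 times and the SD of log2 CPM was 0.154 in WT and 0.116 in Cul3+/-, and in WT adults for Rpph1 (1.24 times) and Rn7sk (1.18 times).

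The 3 RNAs deviated together. Over 102 libraries, r between deviations from the group means was 0.868 for Rmrp with Rpph1, 0.847 for Rmrp with Rn7sk and 0.852 for Rpph1 with Rn7sk. Within each of the 9 datasets all these r were above 0, the lowest being 0.497 and the highest 0.992. Leaving out in each dataset the 2 libraries farthest from the median lowered the median r to between 0.631 and 0.767, and the lowest became −0.31, so in some datasets few libraries carried the relation. In 13 of 18 groups a single library was lowest for all 3 RNAs, and in 7 of 18 a single library was highest.

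Other structured RNAs deviated with them, and library depth did not. The 7SL sum had an r of 0.798 with Rmrp, 0.874 with Rpph1 and 0.784 with Rn7sk, over the same deviations. For the sum of the other structured RNAs without 7SL (small nuclear, small nucleolar, Cajal body, Y, vault and telomerase RNAs), r was 0.875, 0.852 and 0.873. With the library total it was −0.066 for Rmrp, 0.010 for Rpph1 and 0.031 for Rn7sk. With the rows of nuclear ribosomal RNA left after depletion it was −0.18, −0.33 and −0.49. With choroid plexus markers it was 0.149, 0.258 and 0.269, and with blood markers such as globins 0.160, 0.246 and 0.130, in the same order. These are descriptions over libraries that share normalization and preparation.

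**Figure D4:**
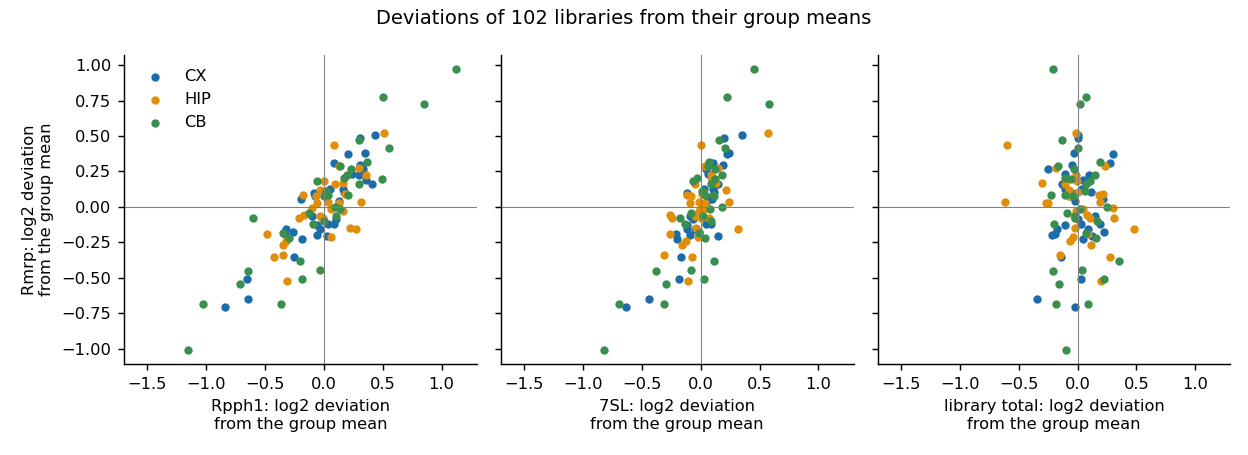
Deviation of Rmrp from its group mean in log2 CPM (vertical axes) against that of Rpph1 (left), the 7SL sum (middle) and the library total (right), for 102 libraries coloured by region. Rmrp follows Rpph1 (r = 0.868) and 7SL (0.798), with the widest excursions in CB, and shows no slope against the library total (−0.066).

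Among the genes most alike by their deviations were many small RNAs. Of 13367 genes with a mean log2 CPM of at least 1, the 5 with the highest r were Gm26448, Rpph1, Scarna10, Rn7sk and Snora73b for Rmrp (0.834 to 0.874). For Rpph1 they were Scarna10, Rmrp, Rn7sk, Rn7s1 and Gm26448 (0.821 to 0.907). For Rn7sk they were Scarna10, Gm26448, Gm25395, Snora73b and Scarna6 (0.867 to 0.937). Gm26448, Snora73b and Scarna10 are annotated as small nucleolar RNAs, and Scarna6 and Gm25395 as small Cajal body RNAs. Of the 50 genes most alike to Rmrp, 10 were small nucleolar, 6 small nuclear and 20 protein coding, where 0.239%, 0.157% and 94.5% of the genes compared were of these types. Of the 50 most alike to Rpph1, 6 were small nucleolar and 33 protein coding, and of those most alike to Rn7sk, 10 were small nucleolar, 5 small nuclear and 20 protein coding.

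By the 9 WT group means the lists differed. Rmrp was most alike to Btf3l4, Rbm18, Rps6, Rps27a and Ewsr1 (r 0.965 to 0.974 over 9 groups), all protein coding and among them the ribosomal proteins Rps6 and Rps27a. Rpph1 was nearest to Rn7sk (0.932), and Scarna10, Tox4 and Naif1 were also among its 5 nearest (0.878 to 0.882). Rn7sk was nearest to Scarna10 (0.966) and Rpph1, followed by Igbp1, Gtf2h4 and Mfap1a (0.886 to 0.923). In this measure Rpph1 ranked 2044 and Rn7sk 2699 for likeness to Rmrp.

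The division of counts between near-identical rows went with period. The row of the 281-base Rmrp model held 10.2 ± 3.4% of the Rmrp counts at E17.5 (SD, 36 libraries), 9.55 ± 1.7% at P7 (36 libraries) and 20.5 ± 2.5% in adults (30 libraries). The adult libraries ran from 13.8% to 25.5% and those at P7 from 6.41% to 12.9%, without overlap. The near-identical 7SL copies showed a larger shift: Rn7s2 held 57.2 ± 1.8% of the 7SL sum at E17.5, 7.63 ± 0.81% at P7 and 52.6 ± 2.1% in adults, in every region. P7 libraries therefore lay apart from the other periods in the division of 7SL and from adults in that of Rmrp. E17.5 and adult libraries overlapped in the division of 7SL, with 50.4% to 59.6% and 47.7% to 57.7% in Rn7s2. For Rmrp, E17.5 lay near P7, with medians of 9.59% and 9.54% in the 281-base row against 20.8% in adults. Its E17.5 range of 7.24% to 27.8% reached the adult range of 13.8% to 25.5% only through WT replicate 1 of CX (16.2%) and WT replicate 3 of HIP (27.8%). The part of this division in the differences between periods was not tested.

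**Figure D5:**
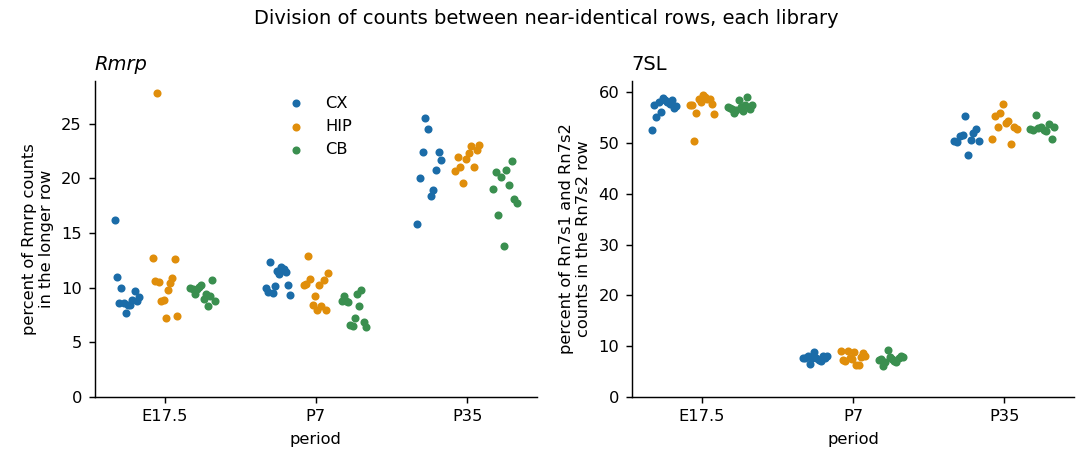
Percent of Rmrp counts in the row of the 281-base model (left) and percent of 7SL counts in the Rn7s2 row (right), both on linear axes from 0, for each of 102 libraries by period and coloured by region. Adult libraries lie above the P7 ones for Rmrp, and P7 libraries lie apart from both other periods for 7SL, at 5.99% to 9.17%.

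Because of this, each Rmrp row was also followed on its own. Between genotypes the rows gave alike values in P7 HIP, with 0.38 (SE 0.075) for the 271-base row and 0.24 (SE 0.15) for the other. From P7 to adult WT HIP they went opposite ways, with −0.47 (SE 0.079) for the 271-base row and 0.73 (SE 0.12) for the 281-base row, and in CX they differed as well, with 0.14 (SE 0.21) and 1.34 (SE 0.22). In CB both were lower in adults, by log2 fold changes of −1.71 (SE 0.32) and −0.38 (SE 0.36). The sum of the rows, used above, does not depend on the division between them.

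The proteins of RNase P and RNase MRP, 11 genes that the choice of RNAs did not use, were tested over the same WT steps by the edgeR quasi-likelihood test at a Benjamini-Hochberg adjusted p of 0.1. From E17.5 to P7, 1 rose and 7 fell in CX, 3 rose and 5 fell in HIP, and 5 rose and 3 fell in CB. Over all genes 39.5% rose and 42.0% fell in CX, 37.5% and 39.3% in HIP, and 37.1% and 38.4% in CB. Pop4 and Rpp40, subunits common to both enzymes, fell in all 3 regions, with mean log2 fold changes of −0.41 and −0.39. The median over the 11 genes was −0.40 in CX, −0.14 in HIP and 0.10 in CB, beside −0.03, −0.03 and −0.02 over all genes. From P7 to adults, 3 rose and 6 fell in CX, 4 rose and 3 fell in HIP, and 2 rose and 6 fell in CB, where 35.4% and 37.0%, 36.8% and 37.5%, and 39.7% and 40.2% of all genes did. Pop4 (mean −0.67), the large scaffold subunit Pop1 (−0.64) and Pop7 (−0.28) fell in all 3 regions, and Pop5, another shared subunit, rose in all 3, from 1.04 in CB to 1.6 in CX.

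The 7SK particle and P-TEFb list has 7 genes. From E17.5 to P7, 1 rose and 5 fell in CX, and 2 rose and 5 fell in each of HIP and CB, beside the shares of all genes given above (39.5% and 42.0% in CX). The cyclins Ccnt2 (mean log2 fold change −0.73) and Ccnt1 (−0.61), the kinase Cdk9 (−0.18) and Mepce, the enzyme that caps 7SK RNA (−0.68), fell in every region. Hexim1, which inhibits P-TEFb when bound to 7SK, rose in every region, from 0.14 in CX to 0.77 in CB. With each CX library left out in turn, between 0 and 2 genes of the list rose there. The list's median was −0.91 in CX, −0.60 in HIP and −0.31 in CB. From P7 to adults, 4 rose and 2 fell in CX, 4 rose and 3 fell in HIP, and 3 rose and 1 fell in CB. Over all genes 35.4% rose and 37.0% fell in CX, 36.8% and 37.5% in HIP, and 39.7% and 40.2% in CB. Hexim1 (mean 0.54) and Ccnt2 (0.45) rose in all 3 regions. The level of Rn7sk itself, lower in CX at the first step, differed by 0.20 (SE 0.13) in CB and −0.01 (SE 0.17) in HIP.

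The machinery that transcribes these genes, 23 genes for RNA polymerase III, its TFIIIB and SNAPc factors and Pou2f1, was tested in the same steps. From E17.5 to P7, 1 rose and 17 fell in CX, 1 rose and 14 fell in HIP, and 5 rose and 11 fell in CB, beside 39.5% and 42.0%, 37.5% and 39.3%, and 37.1% and 38.4% of all genes. Snapc3 of the promoter-binding SNAPc complex (mean −0.71), Polr3b, a catalytic core subunit (−0.69), Pou2f1 (−0.62) and Polr3d (−0.39) fell in all 3 regions. The list's median was −0.34 in CX, −0.24 in HIP and −0.04 in CB. From P7 to adults, 5 rose and 8 fell in CX, 7 rose and 6 fell in HIP, and 6 rose and 11 fell in CB. Over all genes 35.4% rose and 37.0% fell in CX, 36.8% and 37.5% in HIP, and 39.7% and 40.2% in CB. Crcp (−0.61), Polr3d (−0.39), Polr3k (−0.39) and Polr3b (−0.23) were lower in every region and Polr3a, the largest subunit, higher (0.17).

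Other structured RNAs shared the CX step, though not the direction everywhere. Of 39 listed symbols, 37 were in the table and 20 to 23 passed the filter on low counts in a given fit. From E17.5 to P7, 15 of 28 rows fell and 3 rose in CX, 8 of 27 fell and 11 rose in HIP, and 5 of 27 fell and 11 rose in CB. Over all genes 42.0% fell and 39.5% rose in CX, 39.3% and 37.5% in HIP, and 38.4% and 37.1% in CB. The list's medians were −0.84, −0.04 and 0.45 in CX, HIP and CB. From P7 to adults, 9 of 28 rose and 9 fell in CX, 10 of 26 rose and 4 fell in HIP, and 2 of 27 rose and 13 fell in CB. Over all genes 35.4% rose and 37.0% fell in CX, 36.8% and 37.5% in HIP, and 39.7% and 40.2% in CB. The list's medians were 0.03, 0.01 and −0.64 in CX, HIP and CB. Terc, the RNA of telomerase, fell in all regions in both steps (means −1.91 and −1.95), from −2.71 in CX to −0.81 in CB in the first step and down to −3.92 in CB in the second. Scarna2 fell in all regions from E17.5 to P7 (−0.83), and Rnu3a, a U3 RNA gene, from P7 to adults (−1.92), while the Y RNA Rny1 rose from P7 to adults (1.73). The rows Rn7s1 (1.27), Rn7s2 (−2.69), Rnu1a1 (2.53) and Rnu1b1 (−1.46) moved apart in the first step, and Rn7s2 (3.08) and Rn7s1 (−0.68) in the second. Rn7s1 with Rn7s2, and Rnu1a1 with Rnu1b1, are near-identical copies that share reads, so each copy's own change is uncertain. The 28 rows of CX came from 23 symbols, so the counts and medians over rows are not over separate genes.

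None of the 4 lists had a gene called between genotypes in any of the 9 datasets by the quasi-likelihood test, where Cul3 was the single gene called. That is 0.00603%, 0.00566% and 0.00569% of the genes tested in CX at E17.5, P7 and P35, 0.00586%, 0.00563% and 0.00584% in HIP, and 0.00568%, 0.00570% and 0.00584% in CB. At an unadjusted p under 0.05 there were at most 1 of 11 RNase P and MRP proteins, 1 of 7 genes of the 7SK list, 2 of 23 genes of the polymerase list and 4 of the rows of other structured RNAs per dataset. With the RUVs fit, in which factors, scaling and test change together, 8 calls over the 9 datasets fell in the last list, read after their values were seen: Rnu2-10 was higher in adult CX and Rnu3b1 in P7 HIP, Rnu3b1, Rnu3b3 and Rnu3b4 (copies with identical values) were lower in adult HIP, and Rn7s1, Scarna10 and Terc were lower in P7 CB. With DESeq2 no gene of the 4 lists was called. The median log2 fold change of the other structured RNAs was 0.15 in P7 HIP, −0.32 in P7 CB and 0.42 in adult CB, the datasets in which Rmrp and Rpph1 differed most between genotypes, and 0.18 in P7 CX, where they had 0.20 and 0.11. In E17.5 CX, where mice of the same number deviated together over all genes (r of 0.113 to 0.759 in 6 pairs), a fit with the replicate number as a block called 55 genes in place of 1.

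The genes that start next to the 3 RNAs were tested as well. Ccdc107, a protein-coding gene at chr4:43492900-43495921 on the plus strand, starts 163 bases from Rmrp and overlaps it on the opposite strand. It rose in WT CX (log2 fold change 0.39, SE 0.11, adjusted p = 0.00497, edgeR), HIP (0.73, SE 0.089, adjusted p = 6.68e-06) and CB (0.32, SE 0.097, adjusted p = 0.00858) from E17.5 to P7, and in the same step the Rmrp values were −1.88, −0.56 and 0.27. In P7 HIP its log2 fold change between genotypes was 0.03 (SE 0.072), beside 0.36 for Rmrp. Whether counting took account of strand is not given in the sources used here, so reads of the overlapping stretch cannot be told apart.

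Ccnb1ip1, at chr14:50789248-50807732 on the minus strand, starts 35 bases from Rpph1 and shares the 233 bases shown above, but it was close to absent, with a mean of 0.19 CPM over all libraries. Parp2, which starts on the other side of Rpph1, was taken for its divergent position after the rule for neighbours had given Ccnb1ip1; it fell in WT CX from E17.5 to P7 (−0.88, SE 0.085, adjusted p = 4.52e-07, edgeR), beside −0.98 for Rpph1, and in HIP (−0.58, SE 0.062, adjusted p = 2.15e-06), where Rpph1 had 0.10 (SE 0.12). Gsta4, the protein-coding gene nearest to Rn7sk at 7141 bases, rose in CX in the same step (2.84 on the log2 scale, SE 0.19, adjusted p = 1.75e-08, edgeR), against −1.14 for Rn7sk. The noncoding C920006O11Rik, 281 bases away, fell in CX (−0.66, SE 0.16, adjusted p = 0.00207). None of Ccdc107, Parp2, Gsta4 and C920006O11Rik passed the test between genotypes, with adjusted p of 0.306 or more over the 9 datasets.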

How the data were processed

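Total RNA of CX, HIP and CB was sequenced after ribosomal RNA depletion (TruSeq Stranded Total RNA). Read length is stated differently in the labels and the methods. The authors trimmed reads with Cutadapt 1.14, aligned them with STAR 2.5.3a to GRCm38.p5 and estimated gene levels with RSEM 1.3. The deposited values are expected counts, which divide ambiguous reads between genes, and whether they used strand is not given in the sources used here.

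Expected counts were rounded, and the Rmrp rows were summed. For each of 9 genotype comparisons and 6 WT period steps, genes were kept by filterByExpr (minimum count 10, total 15), scaled by TMM and tested with the edgeR 4.0.16 quasi-likelihood test in R 4.3.3 (Benjamini-Hochberg adjusted p at or under 0.1). SE is the log2 fold change divided by the root of the F statistic. Libraries held 15126114 to 44411282 counts. The members and lists were chosen with earlier results of these data known. Besides the members and Cul3, genes named were the neighbours, the 5 most alike, and up to 4 list genes per direction called in all 3 regions. Of these, 1 of the most alike is not reported here. Parp2 and C920006O11Rik were added after their positions were seen. In each combination of region and period, replicate numbers were checked for pairing, which held in E17.5 CX only. DESeq2 1.42.0, RUVs (3 factors, upper-quartile scaling, likelihood ratio test), upper-quartile scaling alone, no filter, replicate blocks and left-out libraries were alternatives. The tests were tested on simulated data. Mice of a group are separate animals, and each test sets the difference between groups against the spread between mice. The main fits did not pair mice, in E17.5 CX either. In E17.5 HIP and CB the median r of mice of the same number was 0.335 and 0.292, but not every pair was above 0.1.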

Additional observations from a re-analysis of the deposited data

Results flagged for a closer look

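Of 72 sets of replicate values examined, 3 had a library far from the others of its group, and chance flags about 1 in 20 such groups. In adult CB of WT mice, Rmrp in replicate 1 was at 2745 CPM while the other 4 mice lay between 867 and 1396. In E17.5 HIP of WT mice, Rn7sk in replicate 3 was at 11322 CPM while the other 5 lay between 21941 and 27688. In that same library the 281-base row held 27.8% of the Rmrp counts, against 8.82% to 12.7% in the other 5, and the library was also lowest of its group for Rmrp (2090 CPM) and Rpph1 (2096 CPM).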

How the results depend on the processing

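Counts of genes called between genotypes, 1 in each dataset, moved with RUVs, run together with upper-quartile scaling and a likelihood ratio test, which called 59 genes in E17.5 HIP, 11 in E17.5 CB, 14 in P7 CX, 129 in P7 HIP, 65 in P7 CB, 33 in adult CX, 194 in adult HIP and 70 in adult CB. DESeq2 called 2 in E17.5 CB, 3 in P7 CX, 6 in P7 HIP, 3 in P7 CB, 4 in adult CX, 3 in adult HIP and 218 in adult CB. With the replicate number as a block the count was 55 in E17.5 CX, where the numbers pair the mice, 2 in adult CX and 0 in adult CB, where they do not; the block changed no other count of genotype calls by over 1.5 times. Without the filter adult CX gave 2. With the 2 left-out mice under their labelled genotype, adult CX and adult CB gave 2 each. With a library left out in turn the counts ran from 1 to 2 in E17.5 CX (without mutant replicate 1 or 4), P7 HIP (WT 2) and adult HIP (mutant 5 or WT 3), from 1 to 4 in P7 CB (mutant 3) and from 1 to 6 in adult CB (mutant 2). Counts in the WT steps stayed within 1.5 times under all alternatives run. Counts of called list genes moved by over 1.5 times 30 times when a library was left out and 21 times under the other alternatives, and calls of single named genes were lost 39 and 14 times, Cul3 in adult CB with the block among them, none with a change of direction. The SD of Rn7sk ran from 0.258, without E17.5 HIP WT replicate 3, to 0.282. With the row of the shorter Rmrp model alone, an alternative chosen after seeing the data, the lowest WT group was adult CB and the range 3.66-fold. The causes were not tested. In adult CB, leaving out WT replicate 3 gave 0.46, 0.51 and 0.27 for Rmrp, Rpph1 and Rn7sk. Rounded estimates of reads shared between copies, and groups of 5 or 6 mice with a wide spread in CB, limit the precision.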

Other observations

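The 2 adult mice left out of all comparisons, whose genotype was given in opposite ways, had the following levels under the genotype of the sample labels. In CB, Rmrp was at 1054 CPM in the mouse labelled WT and 2791 in the mouse labelled Cul3+/-. Rpph1 was at 1660 and 4992, and Rn7sk at 19482 and 40808, in the same order. In CX, Rmrp was at 1648 and 2213, Rpph1 at 2503 and 2904, and Rn7sk at 20860 and 25398. In HIP, Rmrp was at 1772 and 2067, Rpph1 at 2296 and 2745, and Rn7sk at 22030 and 25106. The mouse labelled WT was the lower of the pair for each RNA in each region. With a single pair of mice and their genotypes in conflict, this order was not read as a difference between genotypes.

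Regions of the same mouse could also be set side by side through the mouse named in the labels, for 9 pairs of regions (3 pairs at each of 3 periods). The r of the deviations from the group means between regions had a median of 0.501 for Rmrp, 0.213 for Rpph1 and 0.356 for Rn7sk. It was above 0 in 6, 5 and 8 of the 9 pairs, with lowest values of −0.26, −0.44 and −0.36, so a mouse with a high level in 1 region did not always have it in another.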
